A study of Mus musculus with 18 samples.

Results

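Lung endothelial cells (ECs) were examined at the loci of 40 genes that mark the other lineages of the lung: 8 leukocyte genes, 17 epithelial genes, 13 mesenchymal genes (fibroblast, smooth muscle and pericyte) and 2 mesothelial genes. Open chromatin had been measured by ATAC-seq, in which the transposase Tn5 cuts accessible DNA and attaches sequencing adapters to it. Peaks that overlapped by at least 1 bp were merged over samples, a merged region was kept when 2 or more samples had a peak there, and each was given to the gene with the nearest transcription start site (TSS). Of 47338 regions, 59 fell to 26 of the 40 genes, and the other 14 genes received no region. The leukocyte genes held 8 regions, the epithelial genes 27, the mesenchymal genes 22 and the mesothelial genes 2.

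Each of the 18 samples came from a single mouse. Young mice gave 5 Sham and 4 Bleo samples, and aged mice gave 4 Sham and 5 Bleo samples. All mice were FVB animals of both sexes that carried a Col1α1-GFP transgene, a reporter of collagen-producing cells, and were 2 months old (Young) or 18 months old (Aged). They received bleomycin at about 1 U/kg (Bleo) or saline (Sham) into the trachea, and lungs were taken 30 days later. ECs were sorted as CD31+ cells that lacked CD45, CD326 and GFP, and about 50000 cells entered each library. The gates bear on 3 of the 40 genes: Ptprc encodes CD45, Epcam encodes CD326, and Col1a1 regulatory sequence drives the GFP reporter, so reads from the transgene and from the native Col1a1 locus cannot be told apart where the transgene holds that sequence.

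The lists held 21050 to 40883 peaks. A code in the deposited names was read as the sequencing lane, which the labels do not give: lane 8 for Young Sham 1 to 5 and Young Bleo 4, lane 7 for Young Bleo 1 to 3 and Aged Sham 1 to 3, and lane 6 for Aged Sham 4 and Aged Bleo 1 to 5. No lane held both Young Sham and aged samples, so for the aged groups set against Young Sham, age and lane cannot be told apart. Lane also differed largely with bleomycin at each age. Only Young Bleo 4 shared a lane with Young Sham, and only Aged Sham 4 shared a lane with Aged Bleo. The part of the lane in the bleomycin comparisons was not tested. Background coverage, the lowest number of fragments expected by chance in a list, was 1.02 to 1.78 fragments, and the median peak rested on 25 to 33 fragments at its summit. The 59 regions held 683 peaks, taking the strongest per region and sample, and the 681 whose fragments could be solved had a median of 22 at the summit, the lowest 8. A locus without a peak is therefore called closed only at this depth.

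As background, each lung lineage is set apart by a small number of genes that its cells transcribe and other lineages keep silent. Silent promoters of tissue-restricted genes are mostly wrapped in nucleosomes and give no ATAC-seq peak, whereas promoters rich in CpG dinucleotides can be free of nucleosomes without transcription. Regions far from a promoter can be enhancers, sites of the insulator protein CTCF or elements of a neighbouring gene, and nearest-TSS assignment does not tell which gene they act on. In a sorted population an open site may come from ECs or from a minority of other cells, and fewer cells of a type cannot be told apart from less accessibility per cell.

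The sequences of some promoters on which the findings turn are given first, as the 150 bases before a start site, 5′ to 3′ on the strand of the gene, with CpG dinucleotides in capitals. They come from RefSeq on GRCm38.p6, the assembly also called mm10, whose promoter table held 24 of the 40 genes. It held no sequence for Myh11, Foxj1 and the third start of Pdgfra, which carried a peak in all 18 samples, so these are not shown. Hopx, a homeodomain-only protein of alveolar type 1 cells, has a downstream start that carried a peak in all 18 samples and a first start that did not. Foxa1, a forkhead factor of epithelium, carried a peak just inside its gene in most samples. The first start of Pdgfra, the platelet-derived growth factor receptor of fibroblasts, and the promoters of Ptprc, of the epithelial adhesion molecule Epcam and of the smooth muscle actin Acta2 carried no peak in any sample.
Hopx downstream start, chr5:77095268-77095417, minus strand: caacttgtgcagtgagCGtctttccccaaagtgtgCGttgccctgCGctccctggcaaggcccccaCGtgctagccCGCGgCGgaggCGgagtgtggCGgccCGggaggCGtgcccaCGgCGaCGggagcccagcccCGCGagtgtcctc
Hopx first start, chr5:77115124-77115273, minus strand: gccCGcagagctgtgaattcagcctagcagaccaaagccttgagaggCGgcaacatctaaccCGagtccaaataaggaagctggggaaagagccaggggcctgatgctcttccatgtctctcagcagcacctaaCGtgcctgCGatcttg
Foxa1, chr12:57546112-57546261, minus strand: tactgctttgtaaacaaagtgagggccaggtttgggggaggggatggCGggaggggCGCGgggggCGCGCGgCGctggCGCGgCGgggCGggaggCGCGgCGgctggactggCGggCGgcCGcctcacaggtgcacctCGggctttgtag
Pdgfra first start, chr5:75152101-75152250, plus strand: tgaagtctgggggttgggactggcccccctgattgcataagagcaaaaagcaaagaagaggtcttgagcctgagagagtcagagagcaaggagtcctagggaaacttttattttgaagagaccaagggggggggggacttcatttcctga
Ptprc, chr1:138175306-138175455, minus strand: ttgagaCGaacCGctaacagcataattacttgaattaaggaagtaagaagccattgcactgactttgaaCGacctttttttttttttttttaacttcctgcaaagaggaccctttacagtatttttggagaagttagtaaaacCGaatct
Epcam, chr17:87635829-87635978, plus strand: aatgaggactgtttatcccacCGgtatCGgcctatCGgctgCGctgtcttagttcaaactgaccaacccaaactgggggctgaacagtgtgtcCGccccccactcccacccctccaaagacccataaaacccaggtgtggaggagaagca
Acta2, chr19:34255374-34255523, minus strand: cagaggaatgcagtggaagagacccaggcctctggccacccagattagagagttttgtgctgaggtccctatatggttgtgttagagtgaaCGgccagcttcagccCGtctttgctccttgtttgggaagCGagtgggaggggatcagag

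The Hopx downstream start held 16 CpG dinucleotides in these 150 bases and the Hopx first start 5. Foxa1 held 18, Epcam 5, Ptprc 4, Acta2 3 and the first start of Pdgfra 0. These numbers describe the printed windows, which cover only some of the 24 genes with a sequence. Promoters without a peak that had a sequence, such as those of Foxa2, Nkx2-1, Krt8 and Krt18, were not printed. No link between CpG number and peaks is read from this choice of windows.

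Most lineage promoters were closed in sorted ECs. Of the 40 genes, 32 (80.0%) had no peak in any sample from 1000 bp before to 100 bp after any of their start sites, against 41.4% of 21000 protein-coding genes. Only 4 (10%) had a promoter peak in every sample, against 48.5% of protein-coding genes. These were Myh11, the smooth muscle myosin heavy chain, Foxj1, the master factor of motile cilia, Hopx and Pdgfra. A further 4 promoters carried a peak in some samples: Tagln, the actin-binding protein transgelin of smooth muscle, in 13, Foxa1 in 8, Coro1a, an actin regulator of leukocytes, in 1 and Wt1, the zinc finger factor of mesothelium, in 1. The median Tagln summit lay at −1060 bp from the start, outside the window, so mostly the edge of an upstream peak was counted.

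**Figure D1:**
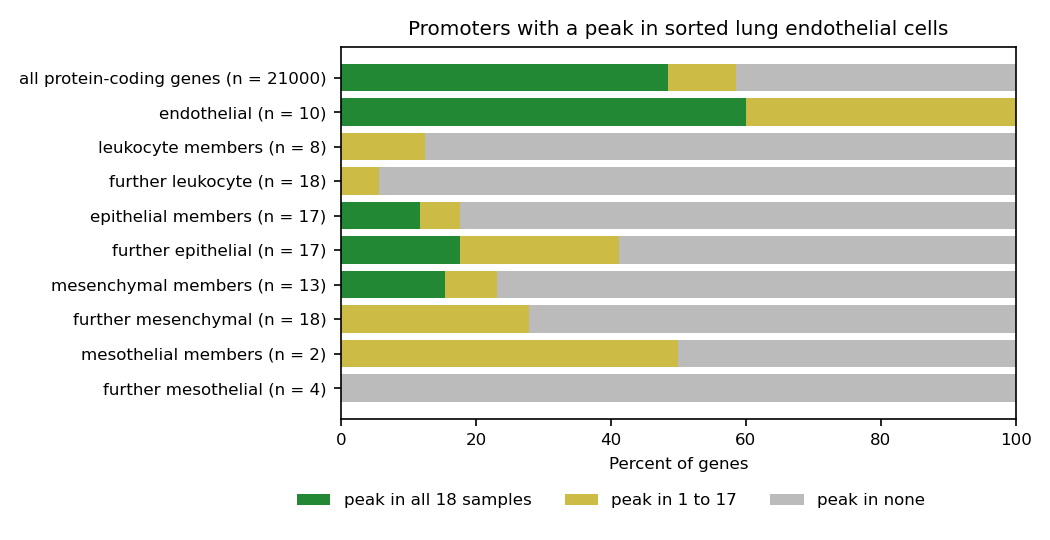
Percent of genes in each list (horizontal axis) whose promoter carried a peak in all 18 samples, in 1 to 17 samples or in no sample, with the number of genes beside each list. The 40 lineage genes have 80.0% of promoters without a peak, while the 10 endothelial genes have 0.0%.

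Endothelial genes served as the check of the labelled cell type. The promoters of Cdh5, Tie1, Kdr, Erg, Cldn5 and Egfl7 carried a peak in all 18 samples, those of Pecam1 in 17, Tek and Vwf in 14 each and Emcn in 7, and none of these 10 was without a peak. Further lists of lineage genes, which share no gene with the 40, were also mostly closed. Of 18 further leukocyte genes 17 had no promoter peak, the exception being the lymphoid factor Ikzf1 in 9 samples. Of 18 further mesenchymal genes 13 (72.2%) had none, and of 4 further mesothelial genes 4 had none. Of 17 further epithelial genes 10 (58.8%) had none, which is nearer to the 41.4% of all protein-coding genes. Of the mesenchymal list, Lox carried a promoter peak in 14 samples, Gli1 in 8, Kcnj8 in 5, Cthrc1 in 3 and Notch3 in 1. In the epithelial list Muc1, Abca3 and Cd24a carried a promoter peak in every sample, Elf3 in 16, Sox2 in 3 and Cldn3 and Esrp1 in 1 each.

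Leukocyte genes were closed at their promoters with 1 exception. Ptprc, Cd79a and Cd3e (antigen receptor subunits of B and T cells), Csf1r (the receptor of macrophage colony-stimulating factor), Itgam (an integrin of myeloid cells), Spi1 (the myeloid factor PU.1) and Laptm5 (a lysosomal protein of blood cells) had no promoter peak in any sample. Coro1a had a promoter peak in Aged Bleo 2 alone, at a fold enrichment of 6.55, which is the number of fragments at the summit relative to the local background of that library. No region at all fell to Ptprc, Cd79a, Cd3e and Itgam. The region nearest to the start of Ptprc lay 69.1 kb away and that nearest to Itgam 94.1 kb away, both nearer to other genes. The CD45 gate and the closed Ptprc locus stand side by side here, and the few other leukocyte regions lay inside or far from the genes.

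Of the leukocyte genes, Spi1 had the merged region closest to its start, since the Coro1a promoter peak of Aged Bleo 2 formed no region. An intronic region 716 bp after the first start, chr2:91082886-91083356, carried a peak in 14 samples: all 5 Young Sham, all 4 Young Bleo, 2 Aged Sham and 3 Aged Bleo. Its fold enrichment lay between 4.21 and 8.94 where a peak was called. A second Spi1 region, 4894 bp after the last of the 3 start sites, carried a peak in 16 samples with a median of 10.1. A further region inside Spi1, nearer to the start of Mybpc3, carried a peak in all 18. A region in an intron of Coro1a, 2938 bp from the start, carried a peak in 15 samples with a median of 6.77. Laptm5 had 4 intergenic regions, of which the one 51442 bp upstream carried a peak in every sample with a median of 14.6, and the others in 5, 6 and 16 samples.

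The epithelial promoters were closed apart from Hopx, Foxj1 and Foxa1. No promoter peak was found for Epcam, Cdh1 (E-cadherin), the surfactant protein genes Sftpc, Sftpb, Sftpa1 and Sftpd, the keratins Krt8, Krt18 and Krt19, Nkx2-1 (the lung and thyroid homeodomain factor), Foxa2, Ager (the receptor of advanced glycation end products of type 1 cells), Scgb1a1 (the club cell secretory protein) and Lamp3 (a lamellar body protein of type 2 cells). Cdh1, Sftpc, Krt18, Krt19, Ager and Lamp3 received no region at all. The nearest region to Krt19 lay 137 kb from its start. Regions inside the body of Cdh1, in 4 and 12 samples, were nearer to the start of Tango6.

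Epcam, the gene of the negative gate CD326, carried a weak peak just inside the gene. This region, 696 bp after the start at chr17:87636442-87636907 and annotated as untranslated region (UTR), had a peak in 4 of the Young Sham, 1 of the Young Bleo and 2 each of the Aged Sham and Aged Bleo samples. Fold enrichment ranged from 4.62 to 6.18 in these 9 samples. The printed Epcam promoter, which ends before the start, had none.

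Foxa1 had a similar peak 285 bp after its start, chr12:57545591-57546061, in the UTR. It was called in all 5 Young Sham, all 4 Young Bleo, all 4 Aged Sham and 2 of 5 Aged Bleo samples, at 4.95 to 7.06. In 8 of the 18 samples a peak reached into the promoter window: 4 Young Sham, 1 Young Bleo, 3 Aged Sham and no Aged Bleo. The related forkhead gene Foxa2, a regulator of airway and alveolar epithelium, had no promoter peak but the largest number of regions of the 40 genes, with 11. All 11 were intergenic, and those 124648, 102637 and 95178 bp upstream carried a peak in all 18 samples, with medians of 13, 10.6 and 11.4.

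The epithelial region with the highest median fold enrichment was distal. A region 20023 bp from the Krt8 start and beyond the end of the gene, chr15:101983983-101984655, carried a peak in all 18 samples at 16 to 25.3, with a median of 19.4. Regions near Scgb1a1 at 5315 and 16252 bp after its start carried a peak in every sample, the latter inside an intron of Ahnak, which also held another with a peak in 17 samples. Sftpb and Sftpd had 1 region each, 27113 and 13183 bp upstream, with a peak in every sample and medians of 9.43 and 11.2. Nkx2-1 and Sftpa1 had 1 region each with a peak in only 2 samples.

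Hopx was open at 1 of its 2 start sites. The downstream start, 19856 bp after the first, lay in a region at chr5:77094824-77095454 that carried a peak in all 18 samples. Fold enrichment was 15.3, 14.2, 14.1, 12.6 and 10.9 in Young Sham, 13.2, 12.9, 11.7 and 12.8 in Young Bleo, 15.5, 12.7, 11.3 and 11.1 in Aged Sham and 13.7, 13.7, 11.0, 9.3 and 10 in Aged Bleo. The fold enrichment of different lists is not on a common scale, so group statements rest on ranks: fold enrichment was ranked within each list, from 0 for the weakest peak to 100 for the strongest. This Hopx percentile lay between 56.2 and 73.0 in Young Sham, 60.9 and 68.0 in Young Bleo, 55.7 and 71.0 in Aged Sham and 49.1 and 70.3 in Aged Bleo, so all 4 groups overlapped. At the first start a peak was called in 1 sample, at 4.32. The start sites were examined after the promoter values were seen.

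The Foxj1 promoter, chr11:116335205-116335883, also carried a peak in every sample. Fold enrichment was 19.3, 17.6, 12.3, 18.3 and 16.2 in Young Sham, 14.9, 14.1, 16.4 and 13.1 in Young Bleo, 17.3, 18.3, 11.0 and 17.1 in Aged Sham and 14.7, 18.6, 12.2, 7.6 and 11.2 in Aged Bleo. The lowest value, in Aged Bleo 4, came from the list with the fewest peaks. The Foxj1 percentile was 78.6 ± 7.68 (SD, n = 5) in Young Sham, 72.8 ± 3.69 (n = 4) in Young Bleo, 73.2 ± 12.7 (n = 4) in Aged Sham and 61.9 ± 16.9 (n = 5) in Aged Bleo. The percentiles of the groups overlapped, and with limma the difference between Aged Bleo and Young Sham had an adjusted p of 0.316.

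The mesenchymal genes included the strongest lineage promoter. At Myh11, chr16:14291139-14291689, fold enrichment was 24.7, 21.5, 19.4, 18.8 and 18.8 in Young Sham, 18.9, 18.0, 21.6 and 18.9 in Young Bleo, 20.1, 23.1, 19.6 and 18.5 in Aged Sham and 18.6, 24.7, 18.7, 15.8 and 18.7 in Aged Bleo. In percentile all samples lay at 75.6 or higher and the groups overlapped, with group means between 83.3 ± 5.53 (SD, n = 5) in Aged Bleo and 88.6 ± 3.91 (n = 5) in Young Sham. The adjusted p of this difference was 0.408 with limma. Smooth muscle genes beside Myh11 did not share this pattern: Acta2 had no promoter peak and no region nearest to its start, although a region inside the gene, nearer to the start of Stambpl1, carried a peak in 9 samples, Des (the muscle intermediate filament desmin) had 1 region 17274 bp upstream in 14 samples and no promoter peak, and Tagln had a region 1086 bp upstream with a peak in all 5 Young Sham, 3 Young Bleo, 2 Aged Sham and 3 of the Aged Bleo samples.

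Pdgfra was open at the third of its 3 start sites, 3915 bp after the first. This region, chr5:75155794-75156606, gave 9.67, 8.38, 9.61, 9.12 and 8.52 in Young Sham, 9.3, 10.9, 10.4 and 7.94 in Young Bleo, 7.96, 11.8, 5.88 and 8.09 in Aged Sham and 9.85, 10, 7.52, 6.55 and 8.39 in Aged Bleo. The percentiles of the groups overlapped, and the limma test of Aged Sham against Young Sham gave an adjusted p of 0.459. The first start, from which 3 of the transcripts begin and whose sequence is printed above, and the second start carried no peak in any sample. Pdgfra was thus counted among the promoters with a peak because of a start used by 1 annotated transcript.

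**Figure D2:**
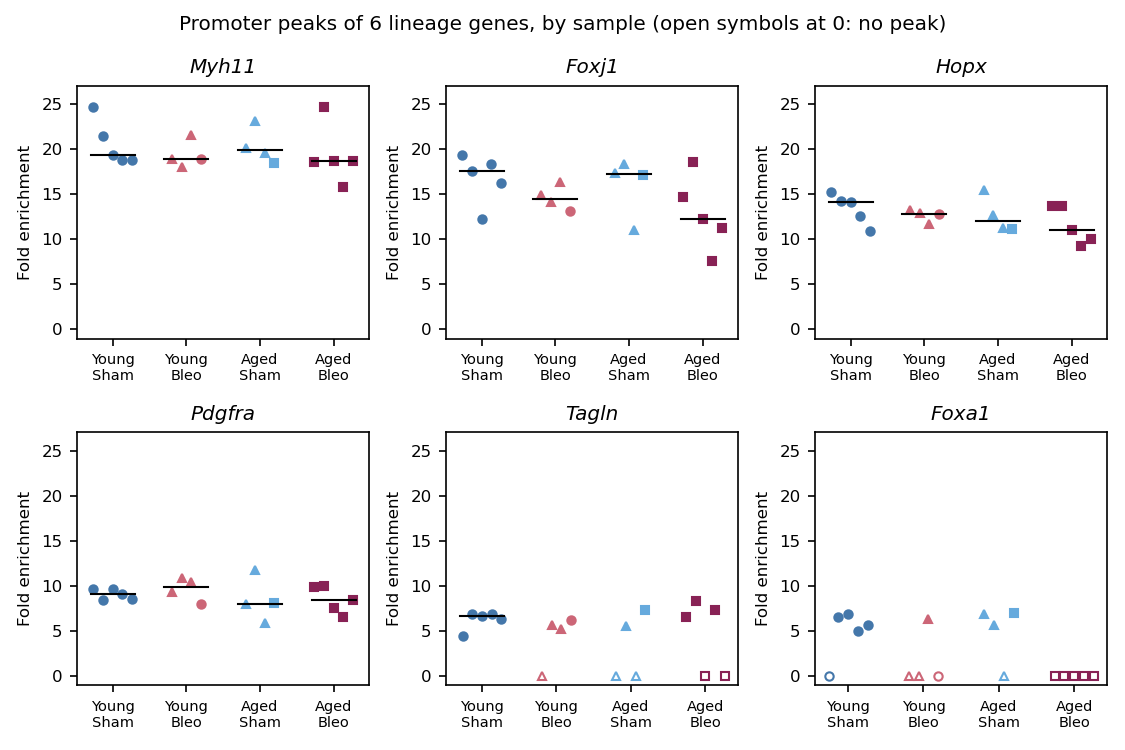
Fold enrichment of promoter peaks (vertical axis) in each sample for Myh11, Foxj1, Hopx, Pdgfra, Tagln and Foxa1, by group; open symbols at 0 mark samples without a peak and lines mark group medians where all samples had a peak. Fold enrichment is not scaled between samples, and Myh11 lies at 15.8 to 24.7.

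The promoters of the 3 collagen genes were closed, while Col1a1 and Col3a1, but not Col1a2, carried a peak inside the gene. Col1a1, whose regulatory sequence drives the sorting reporter, carried a peak in all 18 samples in a region of its intron 1005 bp after the start, chr11:94936912-94937545, at 5.07 to 13.4. Col3a1 carried one in all 18 samples 2595 bp after the start, chr1:45313899-45314366, at 8.68 to 14.4. Col1a2 had 4 intergenic regions and none in the gene. The proteoglycan genes Dcn and Lum received no region, with the nearest ones 103 and 147 kb from their starts. The fibroblast factor Tcf21 had a single region 261311 bp upstream, with a peak in all 18 samples, and the pericyte gene Cspg4 (NG2) had intronic regions in 6 and 16 samples. The pericyte receptor Pdgfrb had an intronic region with a peak in 4 samples.

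The mesothelial gene Msln (mesothelin) received no region and had no promoter peak. Wt1 had a promoter peak in Young Sham 3 alone, at 4.27, an intronic region in 2 samples and a region at its far end, described below with the changes between groups.

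**Figure D3:**
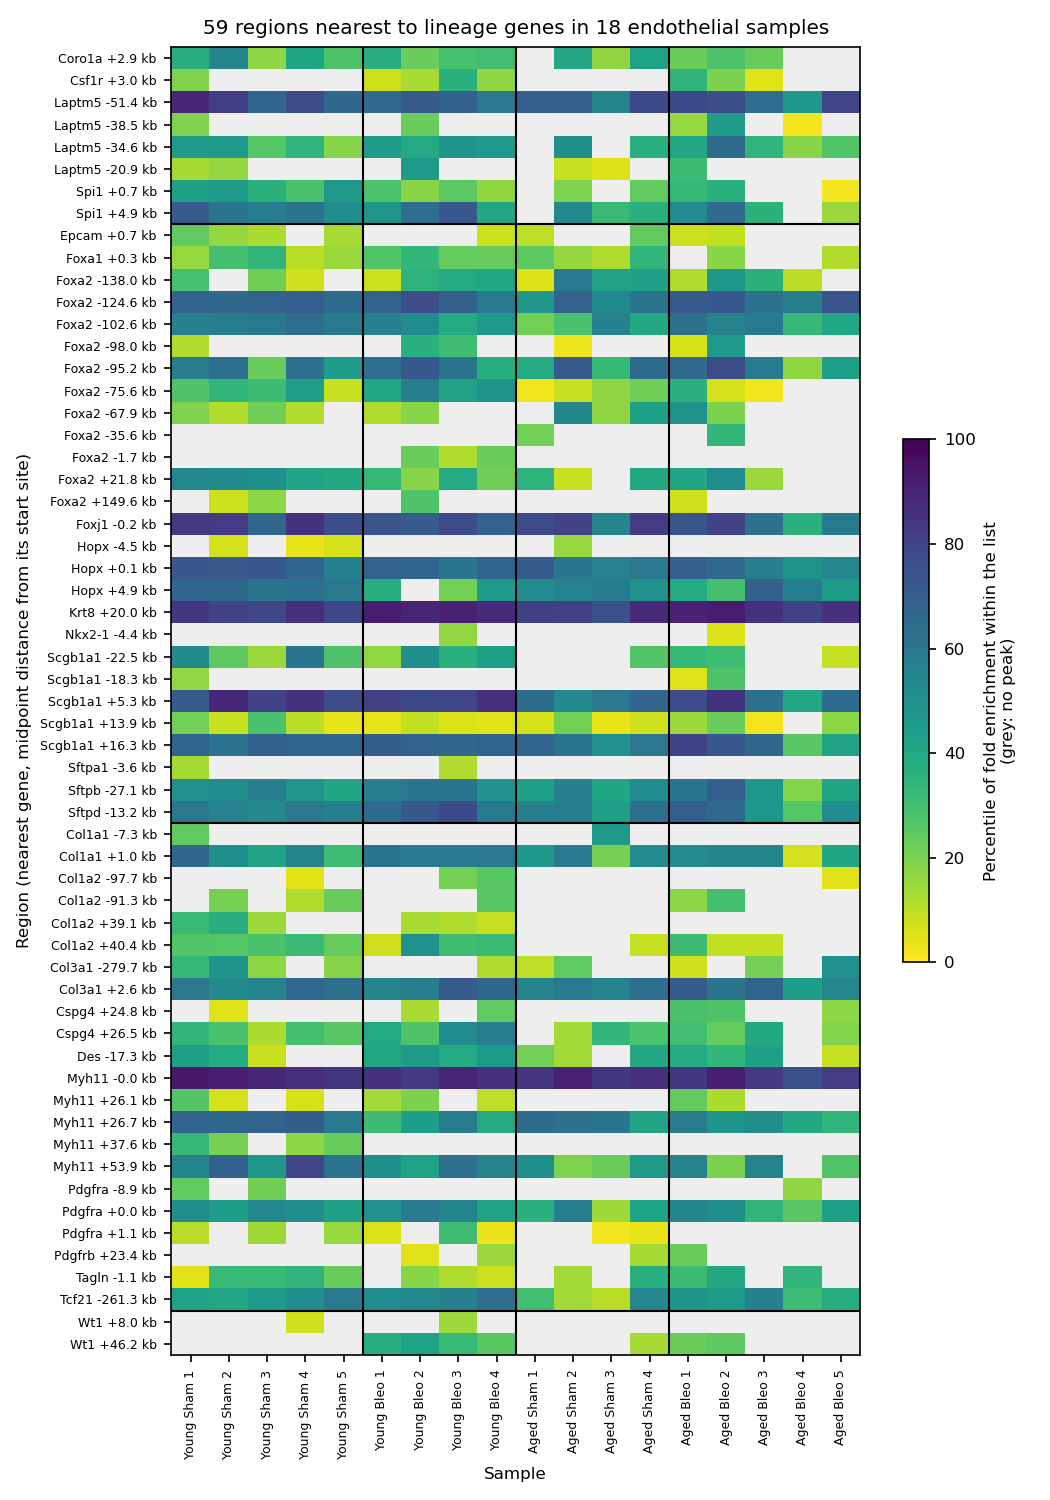
Each of the 59 regions (rows, named by nearest gene and distance from its start) in each of the 18 samples (columns, by group), coloured by percentile of fold enrichment within its list, with grey where no peak was called; horizontal lines part the lineages. Rows without grey are the 17 regions with a peak in every sample, and the Myh11 promoter and the Krt8 region are the darkest.

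Across the 59 regions, 17 (28.8%) carried a peak in all 18 samples, against 36.8% of all regions, and 23 carried one in under 9 samples. The regions present in all samples had median fold enrichments of 8.82 to 19.4 and the 23 others 4.81 to 7.8. By lineage, 1 of 8 leukocyte, 10 of 27 epithelial, 6 of 22 mesenchymal and 0 of 2 mesothelial regions were present in all samples. Most regions lay away from promoters: 32 were intergenic, 20 intronic, 4 in UTRs and 3 in promoters. Of the 59, 36 lay over 10 kb from the start, and 11 (18.6%) lay within 2 kb, against 30.6% of all regions. The 18 genes that had a region but no promoter peak held 42 regions, 12 of them present in all samples. For the 14 genes without a region, the nearest region of any gene lay 3.27 to 147.0 kb from the start, with a median of 40 kb.

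Sequence motifs were looked up in both orientations within the 200 bp centred on each region's strongest summit. The core of the endothelial factor ERG, CAGGAAG, was found in 7 of the 59 regions (11.9%), against 20% of all regions. The AP-1 motif TGANTCA was found in 5 (8.47% against 8.72%), the forkhead motif TGTTTAC in 2 (3.39% against 4.43%) and the CArG box of smooth muscle genes in 1, the Des region (1.69% against 0.972%). The CTCF core motif was found in 13 (22% against 6.84%), among them the intronic regions of Col1a1 and Col3a1, the Pdgfra region at the third start and the Scgb1a1 region at 5315 bp. These are descriptions of letters in a window, and no test was made between the shares.

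Summits of 5 regions are shown to let the values be read beside their sequence: the intronic Col3a1 region and the Krt8 region, present in all samples, and the regions of Col1a2, Foxa2 and Hopx described below for differences between groups. Each is 150 bases around the strongest summit, 5′ to 3′ on the strand of the gene, with a match to the CTCF core (Col3a1) or to the forkhead motif (Hopx) in capitals, and with no match to the motifs searched in the other 3.
Col3a1, chr1:45314077-45314226, plus strand: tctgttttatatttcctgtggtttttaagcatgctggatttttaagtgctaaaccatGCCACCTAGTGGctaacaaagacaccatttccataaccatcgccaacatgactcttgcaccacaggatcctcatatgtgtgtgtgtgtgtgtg
Krt8, chr15:101984284-101984433, minus strand: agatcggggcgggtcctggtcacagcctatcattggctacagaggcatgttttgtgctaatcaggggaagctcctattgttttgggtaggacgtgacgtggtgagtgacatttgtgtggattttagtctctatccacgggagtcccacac
Col1a2, chr6:4545877-4546026, plus strand: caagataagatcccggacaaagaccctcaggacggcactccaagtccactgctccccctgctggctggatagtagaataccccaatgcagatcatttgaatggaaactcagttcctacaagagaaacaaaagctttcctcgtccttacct
Foxa2, chr2:148048685-148048834, minus strand: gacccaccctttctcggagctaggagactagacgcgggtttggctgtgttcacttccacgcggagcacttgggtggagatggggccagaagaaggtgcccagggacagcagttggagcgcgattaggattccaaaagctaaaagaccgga
Hopx, chr5:77110001-77110150, minus strand: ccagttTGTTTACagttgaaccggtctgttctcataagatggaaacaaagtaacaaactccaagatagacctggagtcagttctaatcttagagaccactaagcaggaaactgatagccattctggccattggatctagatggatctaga

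The 4 groups were then compared for the effects of age, of bleomycin at 2 months, of both together and of bleomycin at 18 months. For each region, Fisher's exact test (two-sided) was run on presence of a peak by group, and regions were called at an unadjusted p of at most 0.05. The smallest p this design gives is 0.00794, and after Benjamini-Hochberg adjustment over 47338 regions no region passed 0.05 in any comparison, so the calls below are a ranking by presence and not changes established for a single region. Of the 8 calls described below, 4 concern regions of Myh11 and Foxa2 that entered the set through 1 group alone and are descriptions. Those of Scgb1a1, Col1a2 and Csf1r lie at the threshold, so that leaving out most single samples ends them, as the numbers of samples fix. When each list was limited to its 21050 strongest peaks, which removes weak peaks, the Scgb1a1 region was the only called one that was left, and it was no longer called. The first 3 comparisons share the Young Sham samples. Beside each, limma on the within-list percentiles, with 0 where no peak was called, described peak strength. The lists differ in length (30073 to 38747 peaks in Young Sham, 33980 to 39420 in Young Bleo, 25793 to 32220 in Aged Sham and 21050 to 40883 in Aged Bleo), and the part of list length in these percentiles was not tested. This test passed 1155, 2051, 1243 and 13 of all regions at an adjusted p of 0.05 in the order Aged Sham, Young Bleo and Aged Bleo against Young Sham and Aged Bleo against Aged Sham.

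In Aged Sham relative to Young Sham, 3 of the 59 regions (5.08%) were called lower, against 4.9% of all regions, and 0 higher, against 0.264%. The share of lineage regions called was thus near that of all regions. With limma, 11 regions (18.6%) had a p of at most 0.05, all lower in Aged Sham, against 19.7% of all regions in either direction. Here and below, the limma shares of all regions cover both directions together. Nothing particular to the lineage regions is therefore read from the direction of their limma differences. The 3 regions called were near Scgb1a1, Col1a2 and Myh11.

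The Scgb1a1 region lies 22489 bp upstream, chr19:9110245-9110645. Its fold enrichment was 9.87, 6.15, 5.32, 11.1 and 6.77 in Young Sham and 5.59, 9.35, 7.47 and 8.06 in Young Bleo. A peak was called in Aged Sham 4 alone of its group, at 6.45, and in Aged Bleo 1, 2 and 5 at 6.69, 7.02 and 5.14. All young samples thus had the peak and 4 of the 9 aged samples did (Fisher's exact test for Aged Sham, p = 0.0476, adjusted p = 0.922).

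The Col1a2 region, 40351 bp after the start and beyond the end of this collagen gene at chr6:4545782-4546156, was also called lower. Fold enrichment was 6.5, 6.3, 6.39, 6.55 and 6.35 in Young Sham, 4.85, 9.09, 6.83 and 6.93 in Young Bleo, 4.91 in Aged Sham 4 with no peak in the other 3, and 6.54, 5.15 and 5.22 in Aged Bleo 1, 2 and 3 with none in the other 2. Fisher's exact test for Aged Sham gave p = 0.0476 and an adjusted p of 0.922. By limma the difference in percentile was −25.4 points (SE 2.43, adjusted p = 0.00573), but 3 of the 4 Aged Sham values were set to 0, which narrows their spread, so no more is read from this p than from presence. At both regions the 3 Aged Sham samples without a peak were those of lane 7, with a background coverage of 1.02 to 1.16 fragments, and the 3 Young Bleo samples of that lane had the peak. The parts of lane and coverage in these values were not tested.

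The third, an intronic Myh11 region 37581 bp after the start, chr16:14253651-14254003, carried a peak in Young Sham 1, 2, 4 and 5 at 7.07, 5.79, 5.34 and 6.35. No sample of the other 3 groups carried one, including Young Bleo 4 of the same lane. This region entered the set only through its Young Sham peaks, so its calls in the 3 comparisons with Young Sham are a description of where the peak was found and no test of a difference.

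In Young Bleo relative to Young Sham, 3 of the 59 regions (5.08%) were called higher, against 3.98% of all regions, and 1 (1.69%) lower, against 1.96%. The region called lower was the intronic Myh11 region just described, and those called higher were near Wt1, Csf1r and Foxa2. With limma, 15 regions (25.4%) had a p of at most 0.05, 8 of them lower and 7 higher, against 19.3% of all regions in either direction.

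The Wt1 region, 46165 bp after the start in the UTR at the far end of the gene, chr2:105172456-105172931, had the smallest p of the 59. No Young Sham sample carried a peak, and all 4 Young Bleo samples did, at 7.46, 8.01, 7.09 and 6.23. Among aged mice a peak was called in Aged Sham 4 at 5.32 and in Aged Bleo 1 and 2 at 5.77 and 6.55. Fisher's exact test of Young Bleo against Young Sham gave p = 0.00794 and an adjusted p of 0.535. By limma the percentile was higher by 34.4 points (SE 2.87, adjusted p = 0.000929), in a comparison where all Young Sham values were 0 and so had no spread. Young Bleo 4, the only sample of its group sequenced in the lane of Young Sham, had the peak. In lane 7 all 3 Young Bleo samples had it and none of the 3 Aged Sham samples did, which differ from them in both age and treatment. The part of the lane in these values was not tested. The other mesothelial gene, Msln, had no region.

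The Foxa2 region 1716 bp upstream, chr2:148048514-148048856, carried a peak in Young Bleo 2, 3 and 4 at 6.0, 5.23 and 5.87 and in no other sample of the series. It entered the set only through these Young Bleo peaks, so its call is likewise a description. Young Bleo 4 of the Young Sham lane was among the samples with the peak, and the part of the lane was not tested. The Foxa2 promoter itself stayed without a peak in all groups.

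The Csf1r region lay in an intron 3015 bp after the start. A peak was called in Young Sham 1 at 5.74, in the 4 Young Bleo samples at 4.85, 5.2, 7.47 and 5.5, in no Aged Sham sample and in Aged Bleo 1, 2 and 3 at 6.93, 6.08 and 4.75. Fisher's exact test of Young Bleo against Young Sham gave p = 0.0476 and an adjusted p of 0.801, and the call was lost when peaks under a fold enrichment of 5 were dropped and where peaks had to cover 50% of the region. Ptprc, the general leukocyte gene, and Itgam had no peak in any of these samples. The Spi1 regions at 716 and 4894 bp and the Coro1a region carried a peak in all 5 Young Sham and all 4 Young Bleo samples. So did the Laptm5 regions 34580 and 51442 bp upstream. All 8 leukocyte regions together gave 5 to 8 peaks per Young Sham sample and 6 to 8 per Young Bleo sample. The same regions gave 1 to 6 per Aged Sham and 3 to 8 per Aged Bleo sample. The cell source of these peaks was not tested.

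Within-list percentiles also differed at a pair of regions that nearly every sample carried. They were chosen after their values were seen because their adjusted p passed 0.05 with limma. Together with the Wt1 region, they were the lineage regions that passed in Young Bleo against Young Sham, beside 2051 of all 47338 regions. In Aged Bleo against Young Sham the Myh11 region at 26694 bp alone passed, beside 1243 of all regions. Nothing particular to the lineage regions is read from this. The intronic Myh11 region 26694 bp after the start, chr16:14264429-14264998, gave 13.8, 12.8, 12.8, 13.5 and 11.6 in Young Sham, 6.82, 8.37, 11.2 and 7.5 in Young Bleo, 13.7, 13.1, 12.5 and 8.05 in Aged Sham and 10.5, 9.75, 9.74, 7.95 and 7.25 in Aged Bleo. In percentile, every sample of both Bleo groups (31.3 to 58.2) was below every Young Sham sample (59.7 to 70.6), and Aged Sham (41.6 to 64.6) overlapped both. The lowest Aged Sham fold enrichment, 8.05, was that of Aged Sham 4, sequenced in lane 6 with the Aged Bleo samples. Young Bleo 4, of the Young Sham lane, gave 7.5. The parts of lane and of list length in these values were not tested. The limma differences from Young Sham were −23.6 percentile points in Young Bleo (SE 5.12, adjusted p = 0.0437) and −20.6 in Aged Bleo (SE 4.39, adjusted p = 0.0465), while Aged Bleo against Aged Sham gave −11.4 (SE 6.4, adjusted p = 0.826). The Myh11 promoter did not pass in any comparison. A pair of regions at the far part of Myh11, nearer to the start of Nde1, carried a peak in 9 and 11 samples.

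The Hopx region 4948 bp after the first start, chr5:77109744-77110605, gave 13.6, 12.7, 11.2, 11.5 and 11.6 in Young Sham and 7.46, 5.97 and 8.43 in Young Bleo 1, 3 and 4, with no peak in Young Bleo 2. Aged Sham samples gave 10.8, 11.5, 12.1 and 9.21, and Aged Bleo samples 7.31, 7.02, 14.1, 10.9 and 8.78. In percentile the 3 Young Bleo peaks, including that of Young Bleo 4 of the Young Sham lane, lay at 20.8 to 45.9. The Young Sham peaks lay at 59.7 to 67.5, without overlap, and Aged Bleo, at 29.6 to 69.4, overlapped Young Sham. The limma difference of Young Bleo from Young Sham was −37.6 percentile points (SE 8.45, adjusted p = 0.0495). Young Bleo 2, without a peak, entered it at 0, which makes it larger than among the 3 peaks. At the open downstream Hopx start the same difference was −2.19 (SE 3.71, limma adjusted p = 0.78). The part of the lane in these Hopx values was not tested.

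**Figure D4:**
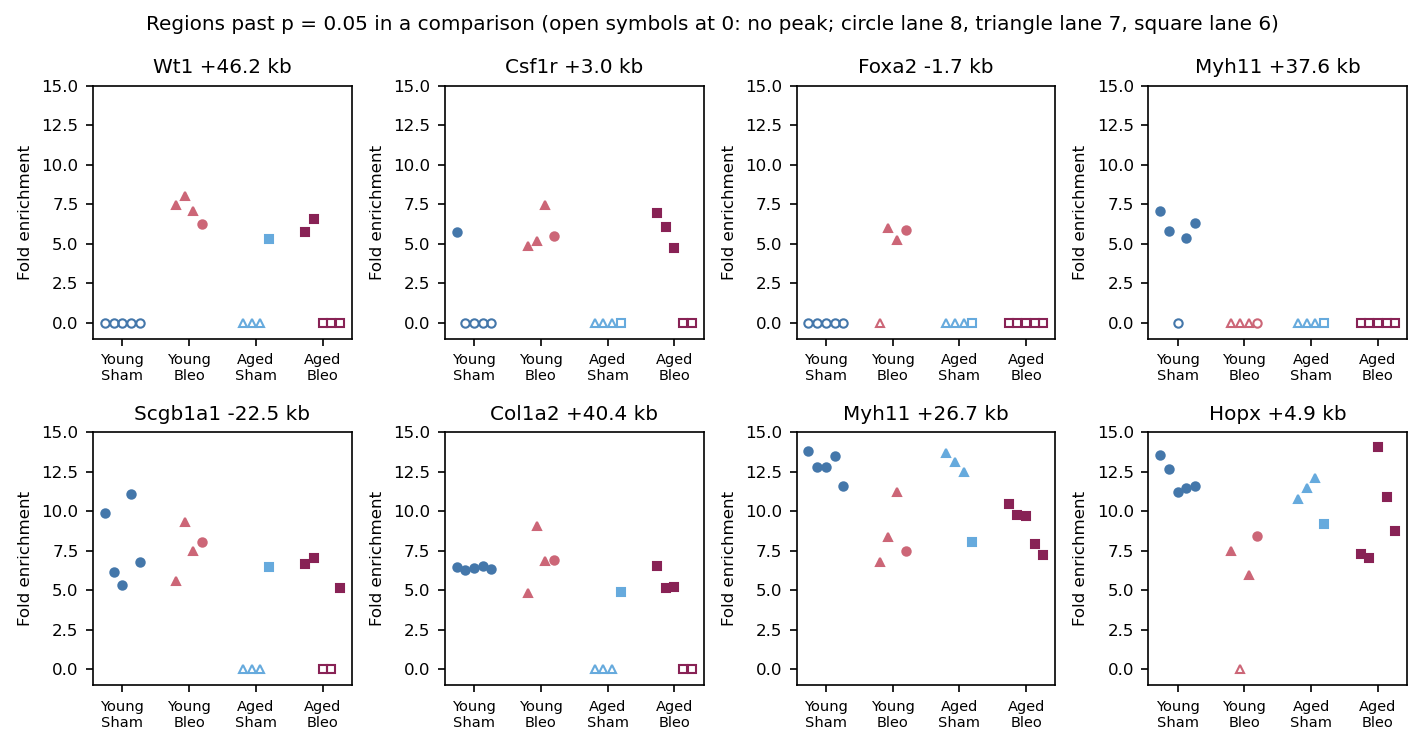
Fold enrichment (vertical axis) in each sample at the 6 regions past a Fisher's exact p of 0.05 and at the Myh11 and Hopx regions past an adjusted limma p of 0.05; open symbols at 0 mark samples without a peak, and circles, triangles and squares mark lanes 8, 7 and 6. At the Wt1 region the 4 Young Bleo samples sit between 6.23 and 8.01 and no Young Sham sample has a peak.

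In Aged Bleo relative to Young Sham, 1 of the 59 regions was called lower (1.69%), the Myh11 region at 37581 bp already described, against 3.01% of all regions, and 0 were called higher, against 0.201%. With limma, 14 regions (23.7%) had a p of at most 0.05, all lower in Aged Bleo, against 17.4% of all regions in either direction. No share of all regions lower alone stands beside this count, so nothing particular to the lineage regions is read from its direction. In Aged Bleo relative to Aged Sham, 0 regions were called by Fisher's exact test in either direction, against 0.41% of all regions lower and 0.475% higher. With limma, 1 region (1.69%) had a p of at most 0.05, against 5.52% of all regions in either direction, the Foxa1 region at 285 bp, which was lower in Aged Bleo by 15.9 points (difference −15.9, SE 5.8, adjusted p = 0.734). The difference between the bleomycin effects at the 2 ages, an interaction term added after the data were seen, passed an adjusted p of 0.05 at 67 of all regions and at 0 of the 59. At the Wt1 region it was −28.3 points with an adjusted p of 0.296 by limma.

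The number of lineage regions with a peak moved with the number over the whole genome. Per sample 23 to 48 of the 59 regions carried a peak, and the group means were 41.4 ± 4.28 (SD, n = 5) in Young Sham, 42.2 ± 3.59 (n = 4) in Young Bleo, 33.0 ± 4.76 (n = 4) in Aged Sham and 35.0 ± 10.1 (n = 5) in Aged Bleo. As shares these were 70.2%, 71.6%, 55.9% and 59.3%, against 71.9%, 75.1%, 59.2% and 63.0% of all regions. By single regions, 27 of the 59 (45.8%) were carried by a smaller share of Aged Sham than of Young Sham samples and 8 (13.6%) by a larger share, against 38.4% and 10.1% of all regions. In Young Bleo 13 (22%) had a smaller and 16 (27.1%) a larger share, against 20.4% and 27.4%. In Aged Bleo relative to Young Sham 27 (45.8%) were smaller and 11 (18.6%) larger, against 36.7% and 15.2%, and relative to Aged Sham 15 (25.4%) were smaller and 21 (35.6%) larger, against 22.1% and 33.0%. These shares are descriptions without a test.

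**Figure D5:**
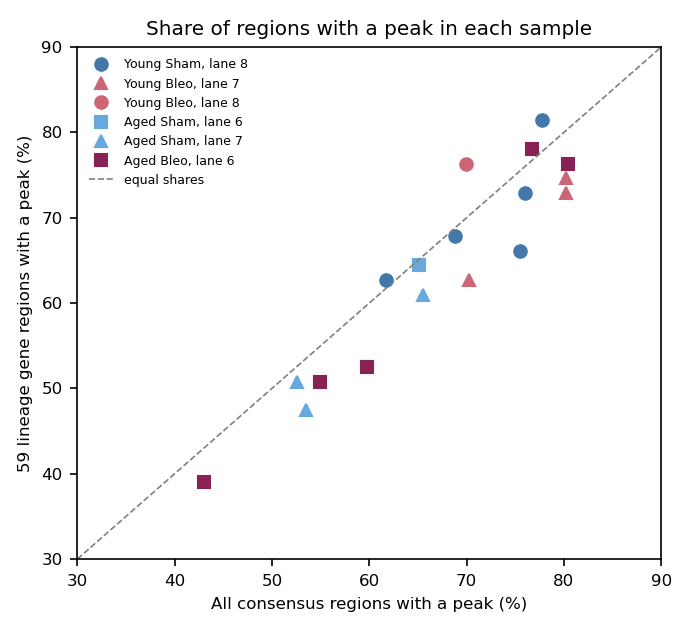
Percent of the 59 lineage gene regions with a peak (vertical axis) against the percent of all regions with a peak (horizontal axis) in each of the 18 samples, coloured by group with a symbol for each lane; the dashed line marks equal shares. Samples lie along the line, from 39.0% to 81.4% of lineage regions.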

How the data were processed

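ATAC-seq peak lists of sorted lung ECs from 18 mice were analysed, each list from 1 mouse. Groups and replicate numbers came from the sample labels, ages from the labels, and dose, day and cell number from the methods of the paper. The authors aligned read pairs (BWA within the HiChIP pipeline, mm10), dropped duplicates with Picard and ran MACS2 on every sample separately with an FDR of 1%. The deposited fold enrichment is a ratio, fragments at the peak summit over the background expected locally in that library. The −log10 p and −log10 q columns, deposited per peak, come from the test of the peak caller in that library, and the lowest −log10 q was 2.01. The deposited score, a rescaling of −log10 q by the authors' pipeline, was not used. The values are not on a common scale across lists, so samples were compared by presence of a peak or by the percentile of fold enrichment within a list. The authors' DiffBind test used read counts, which peak lists do not hold, and was not repeated.

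Peaks of the autosomes and of X and Y entered, without the 19 mitochondrial ones. The midpoint of a region was annotated from 45756 RefSeq transcripts, and a promoter ran from 1000 bp before to 100 bp after a TSS. The fragments behind a peak were solved from its fold enrichment and −log10 p, which gave a whole number to within 0.001 in −log10 p for 681 of the 683 peaks in lineage regions, the other 2 having a −log10 p above 250.0 where no solution was sought. All lineage genes were accounted for, and regions with a Fisher's exact p of at most 0.05, promoters with a peak in all samples and genes without a region were named. The genes and lists were chosen with earlier results of these data known. P-values from separate mice measure the spread between mice and between the lanes that differ with them. The tests were checked on simulated data. Software was Python 3.11.15, numpy 2.4.6, scipy 1.17.1, pandas 2.3.3, matplotlib 3.10.9, R 4.3.3 and limma 3.58.1. Alternatives were stricter peaks, equal numbers of peaks per list, 3 lists per region, 50% coverage of a region, a 2000 bp promoter, limma with and without a replicate block, and each sample left out in turn.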

Additional observations from a re-analysis of the deposited data

Results flagged for a closer look

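Of 36 groups of 4 or 5 samples examined for a sample apart from the rest of its group, 2 held one, and chance gives about 1 in 20. Among the 8 leukocyte regions, Young Bleo 2 carried a peak in 8.0, whereas the other 3 Young Bleo samples carried 6 each. At the open Hopx start, Young Bleo 3 had the lowest percentile of its group, 60.9, against up to 68 in the rest of the group (SD 3.36, n = 4). Both samples were sequenced in lane 7, and the part of the lane in these values was not tested.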

How the results depend on the processing

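No single region named as called turned its direction in an alternative that still held it, but the direction of the counts did change. The number of promoters with a peak in every sample was 4, or 3 with equal numbers of peaks (21050 per list) and 5 with a promoter of 2000 bp on either side. With equal numbers of peaks, genes without a region rose from 14 to 22 and lineage regions dropped from 59 to 31, since weak peaks are removed from long lists. The regions called with equal numbers were 1 in Aged Sham (near Foxa2 and higher, 3.23% of 31 lineage regions against 1.36% of all, instead of 3 lower) and 2 in Young Bleo (near Foxa2 and Hopx and both lower, 6.45% against 3.19% of all, instead of 1 lower and 3 higher), and 1 in Aged Bleo (near Foxa2 and lower, 3.23% against 1.97% of all, in place of the Myh11 region), all relative to Young Sham, and of the regions called before, the Scgb1a1 region alone was left and was no longer called. For Aged Bleo relative to Young Sham, 1 region was called, 2 with a −log10 q of at least 5 (3.51% against 3.05% of all), 2 with a fold enrichment of at least 5 (3.57% against 2.58%) and 5 with 50% of the region covered (8.47% against 5.8%), which also gave 5 in Young Bleo, 3 of them lower (5.08% against 2.37%), and 1 (1.69% against 0.91%) for Aged Bleo relative to Aged Sham. In Young Bleo a fold enrichment of at least 5 gave 2 lower (3.57% against 2.02% of all) and 2 higher (3.57% against 4.1%). The Epcam region was then among those called lower, and the Csf1r region was no longer called. Limma gave 11, 15, 14 and 1 regions in the 4 comparisons, against 3, 4, 1 and 0 by Fisher's exact test.

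Leaving out 1 sample gave 0 to 2 regions in Aged Sham, 1 to 2 in Young Bleo and 1 to 3 in Aged Bleo relative to Young Sham, and 0 in Aged Bleo relative to Aged Sham. No share of all regions stands beside these counts, so nothing particular to the lineage regions is read from them. Genes without a region numbered 14 to 16 and lineage regions 56 to 60. For single regions the outcome is fixed by how many samples carry the peak, so no stability is read from it.

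Same-numbered samples did not deviate together in a consistent way (correlations of −0.302 to 0.28). Pairing of mice by number was thus not seen, but these correlations cannot exclude it. With the replicate block, limma gave 12, 12, 10 and 1 regions (20.3%, 20.3%, 16.9% and 1.69%, against 21.3%, 17.2%, 16.5% and 4.46% of all regions). The 1 region in Aged Bleo relative to Aged Sham was then the Myh11 region at 26694 bp in place of the Foxa1 region. A typical lineage peak rested on 22 fragments, and a locus called closed may be open below this depth.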
